A study of Mus musculus with 40 samples.

Results

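Muc2 and Retnlb, 2 secreted products of intestinal goblet cells, were followed in mouse colonic mucosa as 2 of the 224 real-time PCR assays of the series. They were picked by assay ID: Mm01276696_m1 for Muc2 and Mm00445845_m1 for Retnlb. The gene names are those of the assay vendor, since the deposited table holds IDs alone. The series has 40 samples in 4 groups of 10: mice mono-associated with the E. coli strain CEC (21 days of colonisation), mice mono-associated with E. coli Nissle (21 days), conventional mice, which carry a full microbiota, and germ-free mice, which carry none and were the control of the series. Every group is colonic mucosa, and the labels used here state no strain, age or sex of the mice. According to the deposited design text, equal amounts of RNA were pooled over mice, so a sample may not be 1 animal. The p-values therefore reflect the variation among these samples alone, and that variation may be technical. Colonisation time is labelled for the mono-associated groups alone, so the kind of microbiota and the length of colonisation cannot be told apart against conventional mice.

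Goblet cells fill and renew the mucus that keeps bacteria off the colonic epithelium. Muc2 is the gel-forming mucin that gives this mucus its structure. Retnlb encodes RELM-beta, a small cysteine-rich protein that goblet cells release into the lumen. In mice it has antibacterial activity against Gram-negative bacteria, the class that includes E. coli, and its expression is known to respond to colonisation and to the type 2 cytokines of helminth infection.

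Muc2 lies on chromosome 7 of the mouse (GRCm38.p6, RefSeq, chr7:141690340-141754691, plus strand) and Retnlb on chromosome 16 (chr16:48816856-48818892). The RefSeq promoter table matched 1 of the 2 genes, Muc2. The 250 bases before its annotated start (chr7:141690090-141690339, plus strand) are shown because the Muc2 transcript differed between the groups described next. Capitals mark matches to TTTAC, a CDX2-like motif, and to CANNTG, the E-box read by basic helix-loop-helix factors:
Muc2: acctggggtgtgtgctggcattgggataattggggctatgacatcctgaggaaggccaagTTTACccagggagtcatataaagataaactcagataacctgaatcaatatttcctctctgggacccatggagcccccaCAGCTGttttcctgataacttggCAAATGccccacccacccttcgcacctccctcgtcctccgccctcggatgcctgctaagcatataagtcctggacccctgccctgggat
On either strand, TTTAC had 1 match, which began 190 bases before the start, and 28.3% of the 32851 promoter windows of this length hold it. CANNTG had 2 matches, 112 and 89 bases before the start, and 66.2% of windows hold it. No match was found for the CDX2-like TTTATG (10.8% of windows) or for a STAT6-like motif of TTC and GAA with 4 bases between them (5.85% of windows). The matched motifs did not overlap. A match of letters describes the sequence and shows no binding.

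Both assays gave a measured threshold cycle (Ct, the PCR cycle at which the signal crosses the threshold, 1 cycle less being about a doubling of template) in all 40 samples, with no undetermined and no filled-in value. Muc2 Ct lay between 13.07 and 19.29 and Retnlb Ct between 17.41 and 27.18, so both goblet cell markers were present in every sample. By its median Ct, Muc2 ranked 2 of the 224 assays from the low end, although Ct is not a level that can be set against another assay's. Levels are given as log2 relative expression, obtained by subtracting the Ct of the assay from a normalizer, the median Ct of the same sample across the 203 assays with no undetermined well. That median was 22.72 ± 0.838 cycles in CEC (SD, n = 10), 22.30 ± 0.488 in Nissle, 21.96 ± 0.288 in conventional and 22.47 ± 0.309 in germ-free samples. CEC replicates 3, 6 and 8 stood apart, at 23.61, 23.79 and 24.27 cycles, while the other 7 CEC samples lay at or below 22.48. In mucosa, fewer goblet cells and less RNA per goblet cell cannot be told apart.

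Retnlb was low in the mucosa of mice mono-associated with either E. coli strain and high in conventional and in germ-free mucosa. In CEC samples its log2 relative expression ran from -4.73 to -0.25 with a median of -2.57, and averaged -2.47 ± 1.30 (SD, n = 10). Nissle samples ran from -4.53 to 3.18 with a median of -3.66 and averaged -2.004 ± 2.996. Conventional samples ran from -1.06 to 4.21 with a median of 2.99 and averaged 2.68 ± 1.52. In germ-free samples the lowest was -0.98, the median 2.34 and the highest 3.89, with a mean of 2.31 ± 1.36.

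The 40 values fell on both sides of a gap of 1.83 log2 units, the widest between neighbouring samples. Below it, at or under -0.25, lay 20 samples: all 10 CEC samples, 8 Nissle samples, conventional replicate 7 and germ-free replicate 20. Above it, at or over 1.58, lay 9 conventional samples, 9 germ-free samples and Nissle replicates 4 and 5. These last 2 stood at 3.11 and 3.18, within the germ-free range, and the next Nissle sample, replicate 6, stood at -0.81. Conventional replicate 7 stood at -1.06 and germ-free replicate 20 at -0.98, each apart from the rest of its group. Retnlb had a wide spread for this panel: of the 153 assays measured in every sample, its SD ranked 2 in Nissle, 3 in conventional, 6 in germ-free and 22 in CEC samples, counted from the widest.

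**Figure D1:**
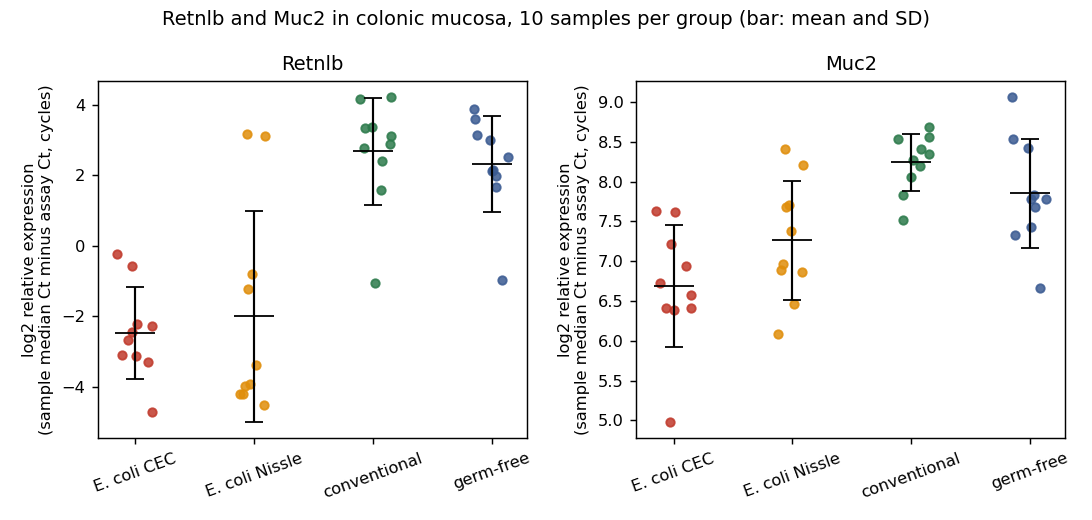
Log2 relative expression (cycles) of Retnlb, left, and Muc2, right, in each of the 10 samples of the CEC, Nissle, conventional and germ-free groups; horizontal bars are means and error bars SD. All 10 CEC samples and 8 of 10 Nissle samples have Retnlb at or below -0.25, and Nissle replicates 4 and 5 lie at 3.11 and 3.18; the vertical scales of the panels differ.

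Set against germ-free mucosa, the comparison for which the series names its control, both genes fell after CEC. Among the 213 tested assays 3.76% were called lower (limma over all assays, Benjamini-Hochberg adjusted p under 0.05). Retnlb was 27.5-fold lower, a log2 difference of -4.78 with a 95% interval from -6.47 to -3.10 (adjusted p = 6.57e-05). All 10 CEC samples lay below the germ-free mean, and 8 of 10 lay below every germ-free sample. The ranges met through CEC replicates 6 and 10, at -0.58 and -0.25, and germ-free replicate 20. Without the 3 CEC samples of high median Ct, Retnlb was 31.3-fold lower (adjusted p = 0.000195).

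After Nissle, Retnlb was 19.9-fold lower than in germ-free mucosa, with a log2 difference of -4.31 and an interval from -6.00 to -2.63 (limma, adjusted p = 0.000793). This interval uses a spread shared by the 4 groups, while the Retnlb SD was 2.996 in Nissle and 1.36 in germ-free samples. A limma fit of these 2 groups alone gave an adjusted p of 0.00473. Of the 215 assays tested, 2.33% were called lower. The fall was uneven: 7 of 10 Nissle samples lay below every germ-free sample, while replicates 4 and 5 lay above the germ-free mean. Without these 2 samples Retnlb was 48.5-fold lower, and without germ-free replicate 20 and conventional replicate 7 as well it was 62.5-fold lower. These samples were picked for their Retnlb values, so values without them are descriptions with no test, and a wider difference follows from the choice.

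Conventional and germ-free mucosa did not differ in Retnlb past the threshold, in a comparison where 17.8% of 214 assays were called in either direction. The log2 difference was 0.37, with an interval from -1.32 to 2.05 (limma, adjusted p = 0.797), which spans changes in either direction. Set against conventional mucosa, the mono-associated groups were lower by about as much as against germ-free mucosa. After CEC, Retnlb was 35.4-fold lower (log2 difference -5.15, interval from -6.83 to -3.46; limma, adjusted p = 1.37e-05), where 7.48% of 214 assays were called lower. After Nissle it was 25.6-fold lower (log2 difference -4.68, interval from -6.37 to -2.99; limma, adjusted p = 9.79e-05), where 7.91% of 215 assays were called lower. A limma fit of these 2 groups alone gave an adjusted p of 0.00183. Without Nissle replicates 4 and 5, left out for their Retnlb values, Retnlb was 62.6-fold lower. Retnlb after CEC was 60.2-fold lower than in conventional mucosa without normalization and 54.2-fold lower with sample quality weights. The background of calls in these comparisons moved with the normalizer, while both genes stayed called lower. For CEC against conventional, 39 assays were higher and 16 lower, against 12 and 27 with the 10 most stable assays as normalizer and 6 and 52 without normalization. For Nissle against conventional, 39 were higher and 17 lower, against 10 and 45 under the stable normalizer and 3 and 18 with none. For conventional against germ-free, 14 were higher and 24 lower, against 24 and 7 under the stable normalizer and 19 and 1 with none, and neither gene was called under any of these. For CEC against germ-free, 10 were higher and 8 lower, against 11 and 13 under the stable normalizer and 4 and 8 with none. Nissle had 9 higher and 5 lower against germ-free, against 5 and 13 under the stable normalizer and 5 and 2 with none. In both, the balance turned from more higher to more lower under the stable normalizer. The comparisons share their germ-free, conventional and mono-associated samples, so they are not independent of each other.

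Between the strains, 3.27% of 214 assays were called in either direction, and neither gene was among them. These were 2 higher and 5 lower, against 0 and 3 under the stable normalizer and 0 and 6 with none. Retnlb had a log2 difference of -0.47 for CEC minus Nissle, with an interval from -2.15 to 1.22 (limma, adjusted p = 0.819). Its direction turned when either Nissle replicate 4 or 5 was left out, and without both CEC was higher by 0.82 log2 units. Muc2 had a log2 difference of -0.57, with an interval from -1.16 to 0.02 (limma, adjusted p = 0.279).

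Muc2 had its group means in the same order as Retnlb, without the wide step of Retnlb between Nissle and germ-free (-0.59 for Muc2 and -4.31 for Retnlb as log2 differences). In CEC samples its log2 relative expression ran from 4.98 to 7.63 with a median of 6.65, and averaged 6.69 ± 0.765 (SD, n = 10). Nissle samples ran from 6.08 to 8.41 with a median of 7.17 and averaged 7.26 ± 0.746. Conventional samples ran from 7.52 to 8.69 with a median of 8.31 and averaged 8.24 ± 0.358, and germ-free samples ran from 6.66 to 9.06 with a median of 7.78 and averaged 7.85 ± 0.682. The ranges of all 4 groups overlapped. CEC replicate 8 was the lowest of the 40 samples, with a Muc2 Ct of 19.29 against at most 16.88 in the other 9 CEC samples, and it also had the highest median Ct of the series.

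Against germ-free mucosa Muc2 was 2.24-fold lower after CEC, a log2 difference of -1.16 with an interval from -1.75 to -0.57 (limma, adjusted p = 0.00558). All 10 CEC samples lay below the germ-free mean. Without CEC replicates 3, 6 and 8 Muc2 was 1.997-fold lower (limma, adjusted p = 0.02). After Nissle the difference from germ-free was -0.59, with an interval from -1.18 to 0.00109, and did not pass (limma, adjusted p = 0.232). It was -0.85 without Nissle replicates 4 and 5, and -0.98 when germ-free replicate 20 and conventional replicate 7 were also left out, again as descriptions.

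Conventional samples had the highest mean of Muc2. Their difference from germ-free was 0.39, with an interval from -0.20 to 0.98 (limma, adjusted p = 0.411), and among the alternatives run it passed with sample quality weights, at 0.58 (limma, adjusted p = 0.0334). Against conventional mucosa Muc2 was 2.93-fold lower after CEC (log2 difference -1.55, interval from -2.14 to -0.96; limma, adjusted p = 9.91e-05) and 1.97-fold lower after Nissle (log2 difference -0.98, interval from -1.57 to -0.39; limma, adjusted p = 0.0138). Without normalization Muc2 was 4.97-fold lower after CEC than in conventional mucosa. Of the 10 CEC samples 8, and of the 10 Nissle samples 6, lay below every conventional sample. The order of mean levels was thus CEC, Nissle, germ-free and conventional from low to high for both genes, while by medians Nissle lay below CEC for Retnlb. For Muc2 no neighbours in that order differed past the threshold, and for Retnlb only Nissle and germ-free did.

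**Figure D2:**
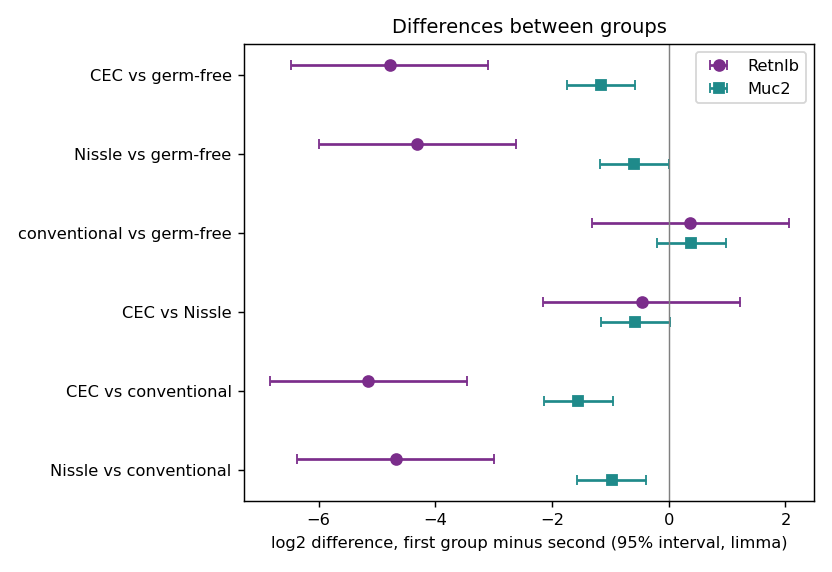
Log2 difference (first group minus second, horizontal axis) of Retnlb (circles) and Muc2 (squares) in the 6 comparisons, with 95% intervals from limma. For Retnlb the intervals of both mono-associated groups lie below 0 against germ-free and against conventional mucosa; for Muc2 the interval of Nissle against germ-free reaches 0.00109.

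Within the panel, Retnlb was among the assays with the greatest change after mono-association. By size of the log2 difference it ranked 2 of 213 tested assays for CEC against germ-free, 2 of 215 for Nissle against germ-free, 4 of 214 for CEC against conventional and 3 of 215 for Nissle against conventional. Muc2 ranked 18, 44, 12 and 39 in the same comparisons. The median log2 difference over all tested assays was 0.05 for CEC and 0.02 for Nissle against germ-free, and 0.21 for CEC and 0.17 for Nissle against conventional. Against conventional mucosa the panel median turned with the normalizer, to -0.08 for CEC and -0.25 for Nissle with the 10 most stable assays and to -0.53 and -0.16 without normalization, while both genes stayed further below 0 than the panel median. In conventional against germ-free samples, where the panel median was -0.18, Retnlb ranked 103 and Muc2 96 of 214.

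**Figure D3:**
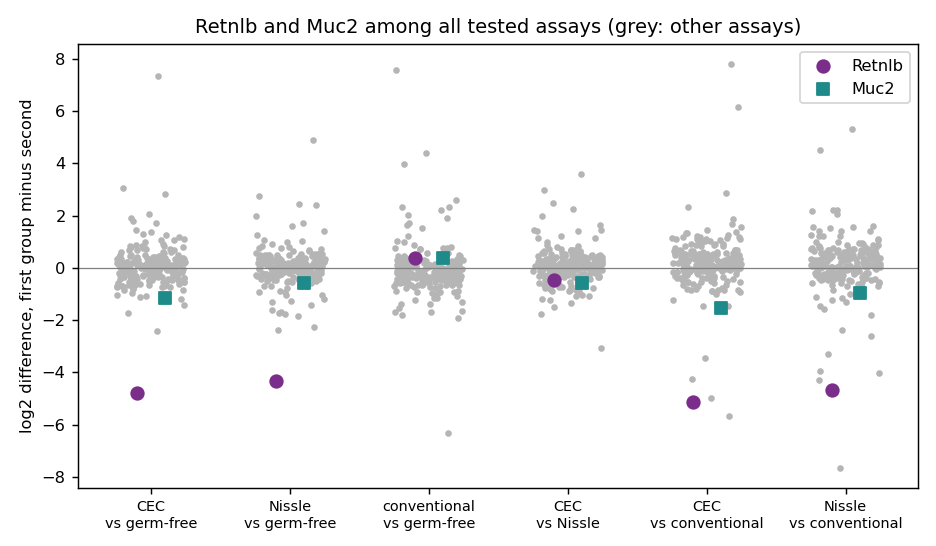
Log2 difference (first group minus second, vertical axis) of every tested assay in the 6 comparisons; Retnlb is a purple circle, Muc2 a green square and each other assay a grey dot. Retnlb lies at -4.78, -4.31, -5.15 and -4.68 in the comparisons of a mono-associated group with germ-free or conventional mucosa, at the lower end of the panel, and at 0.37 and -0.47 in the other 2.

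The Ct of Muc2 minus the Ct of Retnlb compares the genes inside a sample and does not depend on the normalizer. Because the genes were chosen with earlier results known, it is described without a test. In CEC samples it ran from -11.14 to -7.43 cycles and averaged -9.16 ± 1.19 (SD, n = 10). Nissle samples ran from -11.62 to -5.10 and averaged -9.27 ± 2.42. Conventional samples ran from -9.33 to -4.17 with a mean of -5.56 ± 1.54, and germ-free samples from -7.63 to -4.20 with a mean of -5.54 ± 0.899. Relative to Muc2, Retnlb therefore differed from germ-free mucosa by -3.62 cycles after CEC, by -3.73 cycles after Nissle and by -0.02 cycles in conventional mucosa. Nissle replicates 4 and 5, at -5.10 and -5.22, were in the germ-free range here too, and without them the Nissle difference was -4.75 cycles. Germ-free replicate 20 was again the lowest of its group and conventional replicate 7 of its own.

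**Figure D4:**
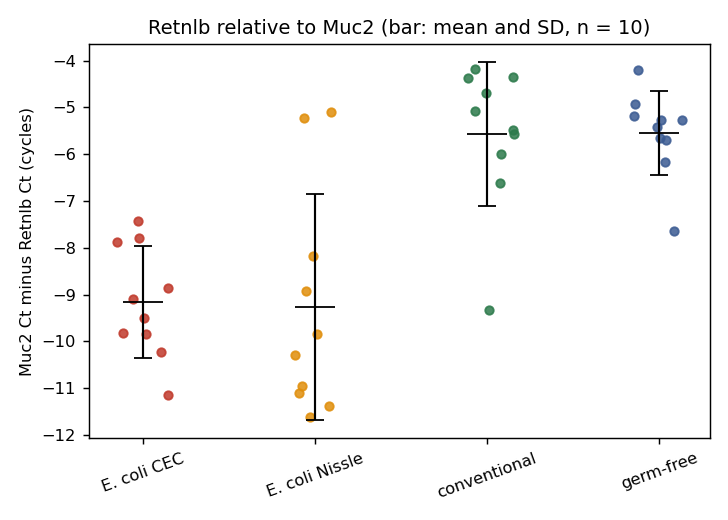
Ct of Muc2 minus Ct of Retnlb (cycles, vertical axis) in each sample of the CEC, Nissle, conventional and germ-free groups; bars are means and error bars SD (n = 10). CEC samples lie between -11.14 and -7.43 and germ-free samples between -7.63 and -4.20.

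Whether samples with more Muc2 also had more Retnlb was tested within groups, since the samples fall on both sides of the Retnlb gap and a coefficient over all 40 would restate the difference between groups. In all, 5 relations were computed, and adjusted p-values are over these 5. Across the deviations of all 40 samples from their group means, Pearson's r was 0.605 (permutation within groups, two-sided p = 1e-04, adjusted p = 5e-04) and Spearman's rho 0.614 (permutation p = 0.00012, adjusted p = 6e-04). The deviations were not scaled by group, so groups of wide spread weigh more in r. The Retnlb SD was 2.996 in Nissle, 1.52 in conventional, 1.36 in germ-free and 1.30 in CEC samples. Without the 2 samples whose Muc2 deviation was farthest from the median, CEC replicate 8 and germ-free replicate 30, r was 0.672 (permutation p = 2e-05). Both measures share the normalizer, and Ct without normalization, where r was 0.624, shares the template amount of the sample, so either can add to r. With the 10 most stable assays as normalizer r was 0.721. How much of r comes from what the measures share was not tested. On relative expression r was 0.469 without the 4 samples on the other side of the gap from most of their group, Nissle replicates 4 and 5, conventional replicate 7 and germ-free replicate 20.

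Group by group the relation was uneven. In CEC samples r was 0.436 (permutation p = 0.206, adjusted p = 0.258) and rho 0.6 (permutation p = 0.0731, adjusted p = 0.1). CEC replicate 8, lowest in Muc2 but not in Retnlb, lowered this r, which was 0.712 without it (exact permutation, adjusted p = 0.0394). This was the highest of the 10 values with 1 CEC sample left out, and the other 9 did not pass. The sample was singled out for its Muc2 value, so r without it is a description. Without CEC replicates 8 and 10, the farthest from the Muc2 median, r was 0.566 (exact permutation p = 0.16). In Nissle samples r was 0.822 (permutation p = 0.0028, adjusted p = 0.007) and rho 0.782 (permutation p = 0.0106, adjusted p = 0.0266), and r stayed at 0.761 without replicates 5 and 7, the farthest from the median (exact permutation p = 0.0228). Without replicates 4 and 5, the highest in both genes, r was 0.537. Leaving out such samples narrows the range of both genes, which can itself lower r. Replicates 4 and 5 differed by a median of 0.228 log2 units over the assays measured in every sample. The median over all pairs of samples was 0.548, and the lowest, of germ-free replicates 22 and 31, was 0.217. Whether Nissle replicates 4 and 5 are independent samples was not tested.

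Conventional samples gave an r of 0.0812 (permutation p = 0.817, adjusted p = 0.817) and a rho of 0.273 (permutation p = 0.45, adjusted p = 0.45). Their Muc2 spanned 1.17 log2 units, the narrowest of the 4 groups, and without replicates 2 and 8 r was 0.410 (exact permutation p = 0.325). In germ-free samples r was 0.815 (permutation p = 0.00439, adjusted p = 0.00732) and rho 0.588 (permutation p = 0.0801, adjusted p = 0.1). Without replicates 20 and 30, the lowest and the highest sample in both genes, r was 0.496 (exact permutation p = 0.215). Here too, leaving out the extremes can itself lower r. Germ-free samples are numbered 10 to 12, 20 to 22 and 30 to 33, and the labels do not say what this numbering marks. The permutation took the 10 samples as exchangeable, so a grouping by these numbers could enter its p-value. The group values moved with the normalizer. Without normalization r was 0.624 in CEC, 0.961 in Nissle, 0.0952 in conventional and 0.790 in germ-free samples. With the 10 most stable assays as normalizer it was 0.334, 0.983, 0.163 and 0.751 in the same order. Whether r differed between the groups was not tested.

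**Figure D5:**
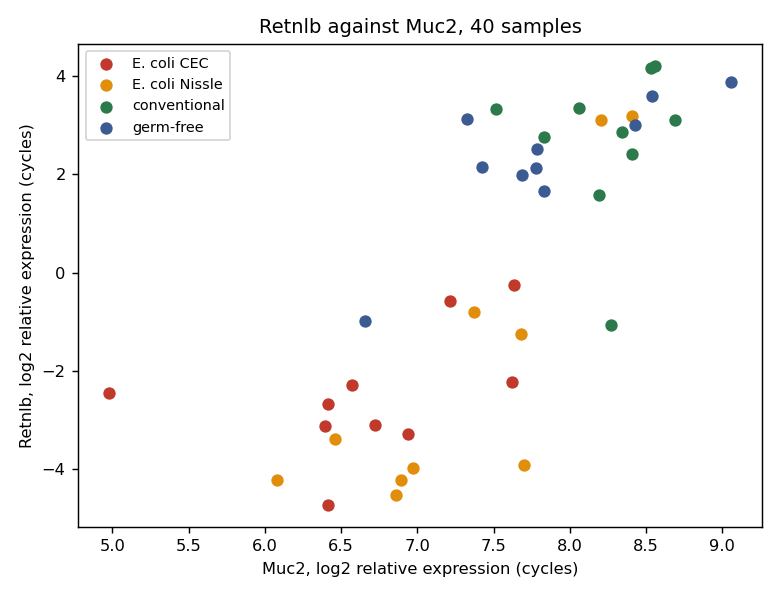
Log2 relative expression (cycles) of Retnlb, vertical axis, against Muc2, horizontal axis, in the 40 samples, coloured by group. Nissle replicates 4 and 5, at 8.21 and 8.41 for Muc2 and 3.11 and 3.18 for Retnlb, lie among the conventional and germ-free samples, and germ-free replicate 20, at 6.66 and -0.98, lies apart from its group.

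As a description of likeness, each gene was set beside the 152 other assays measured in every sample, by Pearson's r over the 40 samples, which share normalizer and groups. For Retnlb the most similar assay was Muc2 (r = 0.781), and Muc2 was also first of 152 by deviations from group means (r = 0.605). Next came Mm00472168_m1 (r = 0.724, 0.295 by deviations). That assay averaged 0.41 ± 1.09 log2 units in CEC, 1.12 ± 0.779 in Nissle, 5.41 ± 1.14 in conventional and 2.83 ± 0.705 in germ-free samples (SD, n = 10 each), and it was higher in conventional than in germ-free mucosa by a log2 difference of 2.58 (interval from 1.75 to 3.42; limma, adjusted p = 2.69e-05), beside 0.37 for Retnlb (interval from -1.32 to 2.05). The difference between the assays was not tested. For Muc2 the most similar assay was Mm01253561_m1 (r = 0.790, 0.769 by deviations, first of 152 on both measures), and Retnlb came second (eighth by deviations). Mm01253561_m1 averaged -0.29 ± 0.520 in CEC, -0.50 ± 0.603 in Nissle, 0.50 ± 0.380 in conventional and 0.01 ± 0.477 in germ-free samples. After CEC it differed from germ-free by -0.29 (interval from -0.75 to 0.16; limma, adjusted p = 0.423), beside -1.16 for Muc2. Neither of these 2 IDs is paired with a gene in the sources used here, and no other goblet cell gene could be looked up among the assays for the same reason.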

How the data were processed

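Total RNA of colonic mucosa was measured on a customized TaqMan OpenArray, per the labels' protocols. The values deposited by the authors are raw Ct (224 assays, 40 samples), per the file headers, which also call the table a truncated example. The Ct threshold and any quality filter: not given in the sources used here. Groups and replicate numbers came from the sample titles. Ct of 40 was read as undetermined (405 values in 21 assays), and 156 values equal within 2e-06 cycles to a mean of other values of their group were read as filled in. Both were left missing as assay values, while the sample medians used as normalizer kept the filled-in values of the 203 assays. Groups were compared with limma 3.58.1 (R 4.3.3), 1 fit over 4 groups, for assays with at least 5 measured samples in both groups, adjusted by Benjamini-Hochberg over all assays of a comparison. The fit and the permutation test were tested on simulated data. Correlations used 100000 permutations, or all of them below 10 samples. Assays named as most like each gene are the 2 with the highest r. The alternatives tried were other normalizers, treatments of missing wells, filters, fits and sample weights, a replicate block and samples left out. The genes, lists and alternatives were chosen with earlier results of these data known. The gene lists drawn up for goblet cells, other cell types and type 2 responses could not be matched to assay IDs and gave no result. The precision is set by 10 samples per group. Plots were drawn with matplotlib 3.10.9.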

Additional observations from a re-analysis of the deposited data

Results flagged for a closer look

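In 4 places a single sample stood farther from the next one of its group, relative to the group's range, than Dixon's 95% critical value for 10 samples. In all, 16 sets of values were examined, and chance marks about 1 in 20. Muc2 in CEC replicate 8 was 4.98 log2 units, where the next CEC sample was 6.39. Retnlb in conventional replicate 7 was -1.06, where the next conventional sample was 1.58, and relative to Muc2 the same sample stood at -9.33 cycles, where the next was -6.61. Retnlb in germ-free replicate 20 was -0.98, where the next germ-free sample was 1.67. The sample median Ct was not marked in any group. What set these samples apart was not tested.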

How the results depend on the processing

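Among the 12 differences of Retnlb and Muc2 between groups, the falls of both genes after CEC and of Retnlb after Nissle, and the fall of Muc2 after Nissle against conventional mucosa, kept direction and call under every alternative run. Sizes of these falls moved by over 1.5 times for CEC against conventional without normalization (Muc2 4.97-fold, Retnlb 60.2-fold lower) and with sample quality weights (Retnlb 54.2-fold). The same held for Retnlb after Nissle without replicates 4 and 5 (48.5-fold against germ-free, 62.6-fold against conventional). Without conventional replicate 7 and germ-free replicate 20 as well, these became 62.5-fold and 83.4-fold, for samples picked by their Retnlb values. Leaving out 1 sample at a time, the log2 difference from germ-free of Retnlb was -5.15 to -4.53 after CEC and -4.89 to -4.03 after Nissle, and that of Muc2 after CEC was -1.29 to -0.97. Retnlb for CEC minus Nissle was -0.75 to 0.11, and turned to 0.82 without Nissle replicates 4 and 5, with or without conventional replicate 7 and germ-free replicate 20. Muc2 passed at -0.98 for Nissle against germ-free without these 4 samples, which were picked for Retnlb, so that call is a description. It also passed at 0.58 for conventional against germ-free with sample quality weights. The germ-free r of Muc2 and Retnlb did not pass as Spearman's rho (0.588), normalized to the 10 most stable assays (0.751) or without replicate 20 (0.701, its range 0.701 to 0.927), and the Nissle r was 0.537 without replicates 4 and 5. Leaving out 1 sample, r was 0.245 to 0.712 in CEC, 0.738 to 0.910 in Nissle and -0.0327 to 0.273 in conventional samples, and 0.549 to 0.681 over all deviations. With the replicate number as a block (germ-free left out), Retnlb differed by -5.15 for CEC and -4.68 for Nissle against conventional, and no call of either gene changed. Same-numbered deviations correlated above 0.1 in 1 (CEC, Nissle), 3 (Nissle, conventional) and 7 (CEC, conventional, median r 0.20, other numbers 0.002) of 10 pairs. Counts of changed assays moved by over 1.5 times: 18, 14, 38, 7, 55 and 56 assays for CEC, Nissle and conventional against germ-free, CEC against Nissle, and CEC and Nissle against conventional became 79, 38, 72, 19, 105 and 88 with sample quality weights; causes were not tested. Without normalization 7, 20 and 21 changed for Nissle and conventional against germ-free and Nissle against conventional, 28 for CEC against germ-free with filled-in values, and 25 for conventional against germ-free with assays measured in all samples. For CEC against Nissle, limma called 0 assays in a fit of these groups alone (23 at an unadjusted p under 0.05) and 3 with stable assays or the block. Without CEC replicates 3, 6 and 8 the counts were 28 for CEC and 33 for Nissle against germ-free and 3 between the strains, and without the 4 samples 24 for Nissle and 17 for conventional against germ-free and 2 between the strains, as without Nissle replicates 4 and 5 alone. With 1 sample left out the counts, in the order above, were 13 to 30, 10 to 24, 15 to 45, 2 to 7, 44 to 75 and 41 to 70. The 3-sample and 4-sample sets were chosen after seeing the data.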
